A study of Bos taurus with 6 samples.

Results

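DNA replication and S phase genes were followed in bovine cumulus cells, the somatic cells that surround the oocyte, between 0 h and 6 h of in vitro maturation. A list of 55 genes was matched to the array by gene symbol. It covered origin licensing, helicase activation, primase and polymerases, the sliding clamp with its loader and partners, nucleotide supply, E2F and cyclin E genes, and chromatin assembly and histone mRNA. Of these, 53 had a probe among the 15216 symbols on the array, 7 of them through an older symbol (the ORC subunits and CDC45), while GINS2 and RFC1 had none. After a filter on dim probes, 47 genes were tested.

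Both groups were cumulus cells of complexes aspirated from ovaries of Holstein cows collected at a slaughterhouse. The 0 h cells were separated mechanically without culture, and the 6 h cells came from complexes cultured in TCM-199 with fetal calf serum, estradiol, pyruvate and gentamicin, with no gonadotropin named. The time of 6 h is the time point label of these samples, whereas the culture protocol in the same labels gives 22 to 24 h, so the 6 h values rest on the time point label. Culture, serum, estradiol and elapsed time therefore all separated the groups and cannot be told apart. Each of 3 replicates was run as a dye swap, on 2 arrays with Cy3 and Cy5 exchanged, so n = 3 throughout. The number of animals behind a replicate is not stated, although the labels call the replicates biological, so the p-values rest on 3 samples whose spread may be partly technical, with variances moderated by limma over all genes.

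A chromosome can be copied only from origins that were licensed beforehand, when the origin recognition complex (ORC), CDC6 and CDT1 load the ring of MCM2 to MCM7. At the start of S phase, CDC45 and the GINS complex join that ring and turn it into the active helicase, primase and DNA polymerase alpha lay down primers, and polymerases epsilon and delta extend them while held by the clamp PCNA. E2F transcription factors, released from the retinoblastoma proteins, drive many of these genes, and cumulus and granulosa cells divide during follicle growth and are known to leave the cell cycle after the ovulatory signal.

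Every array was compared against its negative controls: between 51.3% and 84.3% of probes were above background at 0 h, and between 41.3% and 79.9% at 6 h. Replicates correlated at r = 0.83 (1 with 2), 0.75 (1 with 3) and 0.87 (2 with 3) across genes. Cumulus and granulosa markers were present, with 14 of 15 above background on all 6 arrays at 0 h. Their summed intensity ranged from 166201 to 170382 at 0 h and from 139333 to 142133 at 6 h. Of the 14 tested, 6 fell and 2 rose, with a list median of -0.26 (-0.37, -0.50 and -0.34 in replicates 1, 2 and 3). FST, NR5A2, FSHR and CYP19A1 fell by more than 2-fold, and HAS2 and PTX3 rose. The part of this movement in the members' values was not tested. Immune markers reached this level on all arrays in 2 of 10 cases and endothelial or blood markers in 1 of 8. Oocyte markers, however, separated the replicates: 16 of the 25 listed were tested, and their median log2 ratio of 6 h over 0 h was 1.46, 0.52 and -1.10 in replicates 1, 2 and 3. Their summed intensity at 0 h was 3910, 4047 and 21889, and at 6 h 9388, 5715 and 10843. Replicate 3 was therefore high in oocyte markers at 0 h. Of 23 oocyte markers with a probe, 6 were above background on every array at 0 h and 13 at 6 h. Theca and stroma markers rose in 4 of 7 tested cases (57.1%, against 17.4% of all genes). Their summed intensity ranged from 16063 to 26120 at 0 h and from 25745 to 33083 at 6 h. The rise was not uniform: ACTA2, the brightest of them, had ratios of 0.76, -0.05 and -0.09. In replicate 3, STAR was at -1.14, and the untested COL3A1 and COL1A2 were at -2.42 and -2.55.

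Replication genes were mostly lower after 6 h. A gene was called where limma's moderated test of the 3 log2 ratios against 0 gave an adjusted p under 0.05 over all genes tested. Of the 47 tested members, 26 fell, 1 rose and 20 were not called. Over all 9217 genes tested, 35.7% were called, 18.3% lower and 17.4% higher. The median log2 ratio of the members was -0.69 (-0.33, -0.75 and -0.66 in replicates 1, 2 and 3), against -0.02 for all genes. Of the 20 uncalled members, 16 had a mean below 0 and 4 above. In these bulk samples a smaller share of cells in S phase and less RNA per cell cannot be told apart.

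The drop passed 2-fold in 12 members, from MCM2 at 4.43-fold to TK1 at 2.03-fold. The same criterion held for 5.35% of all genes. All 26 genes that fell had a log2 ratio below 0 on each of the 6 arrays, which their call already favours. Of all 47 tested members, 30 had the same sign on all 6 arrays, beside 3981 of the 9217 genes tested. Of the 26, ORC1, TK1 and CCNE2 were above background on 5 of 6 arrays at 6 h and the others on all 6. In 32 of the 47 members every 6 h level lay below every 0 h level, a pattern seen in 22.7% of all genes. Calls depended on which replicate was left out, also over all genes, of which 3286 were called with all replicates. Without replicate 2, 15 members were lower and 0 higher, and 1351 genes were called in all. Without replicate 3, 21 members were lower and 0 higher (2323 genes in all), and without replicate 1, 34 were lower (3356 in all). By these alternatives and 13 others, 14 of the 27 called genes kept their call in each setting run: ORC2, GMNN, MCM2, MCM5, GINS1, PRIM1, POLE2, PCNA, RFC2, RFC4, RFC5, RPA3, RRM2 and TK1. TK1 was run in 15 of the 16, because the filter that asked for signal on all arrays at both times left it out.

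**Figure D1:**
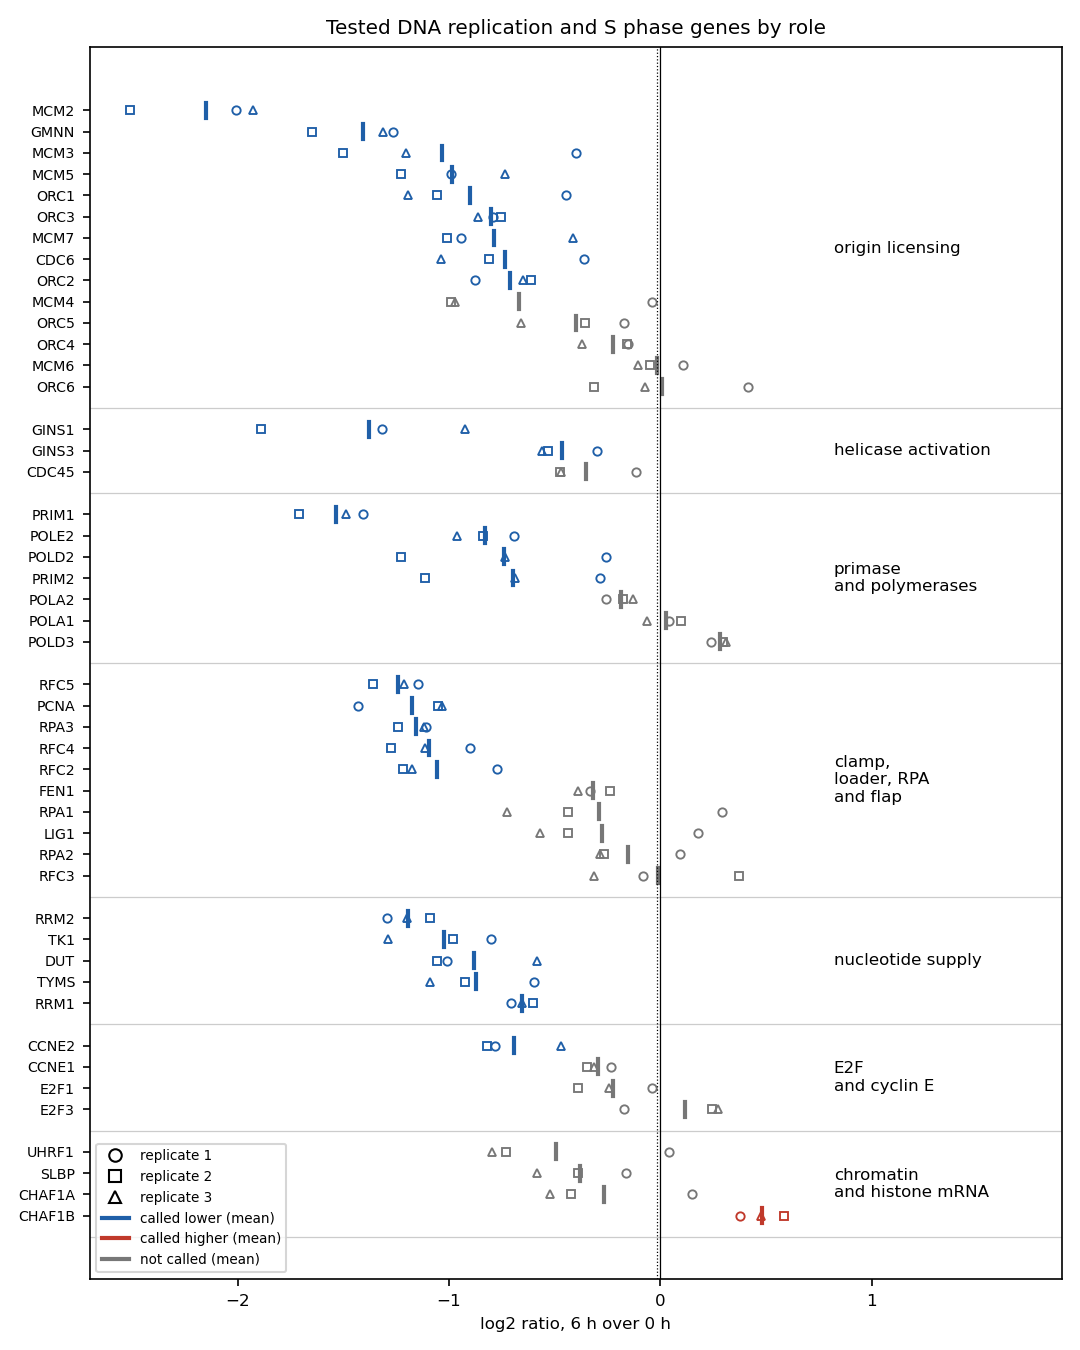
Log2 ratio of 6 h over 0 h (horizontal axis) for the 47 tested members, grouped by role. Open symbols are replicates 1 to 3, vertical bars their mean, blue genes were called lower, the red gene higher and grey genes not called; the dotted line is the median of all genes, -0.02. MCM2 lies farthest to the left at -2.15, and CHAF1B is the only red gene, at 0.48.

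The plot of members by role shows that the share called lower differed between roles. Over all genes, 18.3% were called lower and 17.4% higher. All 5 nucleotide supply genes fell, as did 9 of 14 licensing genes, 2 of 3 helicase activation genes, 4 of 7 primase and polymerase genes and 5 of 10 clamp, loader and single-strand binding genes. Among E2F and cyclin E genes 1 of 4 fell, and of the 4 chromatin and histone mRNA genes none fell and 1 rose. With 4 genes in each, these counts do not stand apart from the shares over all genes. The median log2 ratios in that order were -0.88, -0.76, -0.46, -0.70, -0.69, -0.26 and -0.32. The differences between roles were not tested. The roles also differed in brightness, with median log2 intensities in the same order of 10.69, 9.69, 8.24, 9.13, 11.03, 8.16 and 8.30. Called members had a median intensity of 9.72 and uncalled members 8.86, and the part of brightness in the calls was not tested. Medians of roles with few genes moved with the processing: without the filter on dim probes the primase and polymerase median was -0.19 and the E2F and cyclin E median -0.085, and with a stricter filter the clamp group median was -1.06.

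Origin licensing held the gene with the largest fall among the members. MCM2, a subunit of the helicase ring, had levels of 12.87, 13.74 and 12.96 (log2 intensity, replicates 1 to 3) at 0 h and 10.86, 11.23 and 11.03 at 6 h. No 6 h level came near a 0 h level, and the log2 ratios were -2.01, -2.51 and -1.93. Its mean was -2.15 ± 0.32 (SD, n = 3), with an adjusted p of 0.0013 by limma. GMNN encodes geminin, which binds CDT1 and blocks relicensing. Its levels were 11.19, 11.39 and 11.06 at 0 h and 9.93, 9.75 and 9.75 at 6 h. The groups did not overlap, and the gene fell by 1.41 on the log2 scale (ratios -1.27, -1.65 and -1.31, adjusted p = 0.0020).

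The other MCM subunits did not move as a block. MCM5 fell by 0.98 (ratios -0.99, -1.23 and -0.73, adjusted p = 0.0050). MCM3 fell by 1.03, with -0.40 in replicate 1 against -1.50 and -1.20 in replicates 2 and 3 (adjusted p = 0.020). MCM7 fell by 0.79, with replicate 3 the weakest (-0.94, -1.01 and -0.41, adjusted p = 0.014). MCM4 was at -0.99 and -0.97 in replicates 2 and 3 and at -0.04 in replicate 1. Its mean of -0.67 was not called (adjusted p = 0.064), but without replicate 1 it reached -0.98 (adjusted p = 0.0022). MCM6 stood apart from these, with ratios of 0.11, -0.05 and -0.10. Its mean was -0.02 (95% interval -0.29 to 0.26, adjusted p = 0.93), an interval that holds the mean of no other MCM2 to MCM7 subunit. MCM6 had 1 probe, and the interval does not cover differences between probes of a gene. The calls of MCM3 and MCM7 were lost without replicate 2 (adjusted p = 0.097 and 0.090), and that of MCM3 also without replicate 3 (adjusted p = 0.061).

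ORC marks origins, and only some of its subunits were called. Differences between the subunits were not tested. ORC3 had ratios of -0.79, -0.75 and -0.86 and a mean of -0.80 ± 0.05 (SD, n = 3, limma adjusted p = 0.0044). Its single arrays were less even, from -0.18 to -1.33, and its call was lost on the arrays with 6 h RNA in Cy5 alone (-0.66, adjusted p = 0.051). ORC2 fell by 0.71 (-0.87, -0.61 and -0.65, adjusted p = 0.0081). ORC1, the subunit whose level follows the cell cycle in mammals, fell by 0.90, less in replicate 1 (-0.45) than in replicates 2 and 3 (-1.06 and -1.19, adjusted p = 0.013). CDC6, which joins ORC to load the MCM ring, showed that same order: -0.36, -0.81 and -1.04, with a mean of -0.74 (adjusted p = 0.019). All replicates were also below 0 for the uncalled ORC5, at -0.40 (adjusted p = 0.071), and ORC4, at -0.23 (adjusted p = 0.18). ORC6 was at 0.01 (adjusted p = 0.97), and its replicates disagreed in sign (0.42, -0.31 and -0.07). ORC6 also depended on the dye: it averaged 0.60 on the 3 arrays with 6 h RNA in Cy3 and -0.58 on those with it in Cy5. CDT1, the partner of CDC6 and target of geminin, was above background on 5 of 6 arrays at either time and was not tested.

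**Figure D2:**
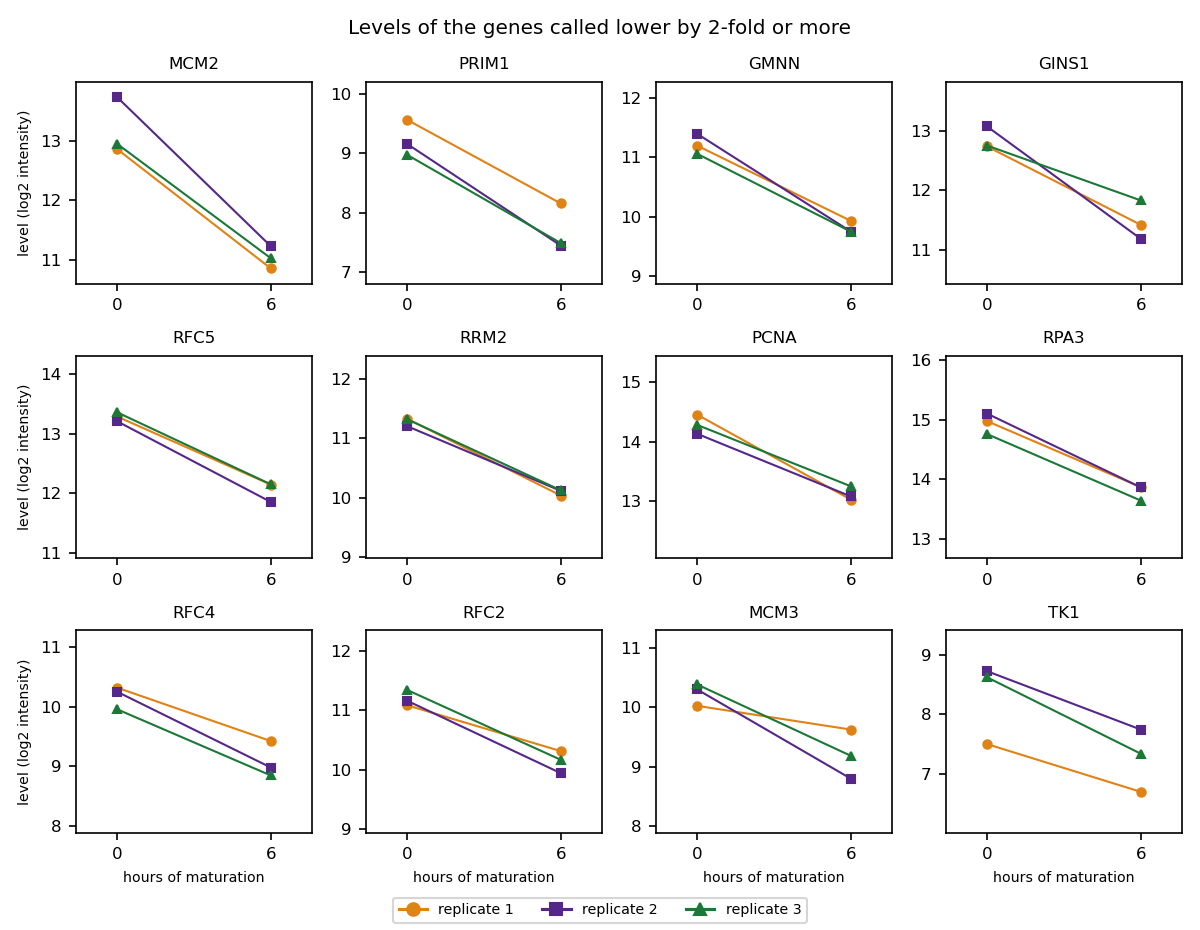
Level (log2 intensity after scaling, vertical axis) at 0 h and 6 h of maturation in the 12 members called lower by at least 2-fold, 1 panel per gene, each axis spanning the same range. Lines join the 2 times of a replicate; all fall, and only in TK1 does a 6 h level (7.74, replicate 2) exceed a 0 h level (7.50, replicate 1).

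Helicase activation was led by GINS1, a subunit of the 4-protein GINS complex. Its levels were 12.74, 13.07 and 12.75 at 0 h and 11.42, 11.18 and 11.83 at 6 h, without overlap. The gene fell by 1.38 (ratios -1.32, -1.89 and -0.92, adjusted p = 0.0059). GINS3, of the same complex, fell by 0.46 (-0.30, -0.53 and -0.56, adjusted p = 0.029), and its call was lost without replicate 2 (adjusted p = 0.16) or 3 (adjusted p = 0.13) and on either dye orientation alone (adjusted p = 0.053 and 0.057). CDC45, which joins GINS on the MCM ring, was at -0.35 and not called (adjusted p = 0.082). MCM10, which helps activate the helicase, was above background on 3 of 6 arrays at each time and was not tested.

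The primase subunits fell while the polymerase alpha subunits that accompany them were not called. PRIM1, the catalytic primase subunit, had levels of 9.56, 9.16 and 8.98 at 0 h and 8.16, 7.45 and 7.49 at 6 h. The ranges did not overlap, and the ratios of -1.41, -1.71 and -1.49 gave a mean of -1.54 ± 0.16 (SD, n = 3, limma adjusted p = 0.0016). PRIM2, the large primase subunit, fell by 0.70, with replicate 1 weakest (-0.29, -1.11 and -0.69, adjusted p = 0.032). POLA1, the catalytic subunit of polymerase alpha, was at 0.02 (95% interval -0.24 to 0.29, adjusted p = 0.89). POLA2, its accessory subunit, was at -0.19 (95% interval -0.45 to 0.08, adjusted p = 0.23). The POLA2 probe was above background on only 3 of 6 arrays at 6 h, so a fall of that gene had little room to show.

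Of the polymerases that extend the primers, POLE2, an accessory subunit of polymerase epsilon, fell by 0.83 in a narrow range (-0.69, -0.84 and -0.96, adjusted p = 0.0050). POLD2, an accessory subunit of polymerase delta, fell by 0.74 but varied widely (-0.26, -1.23 and -0.74, adjusted p = 0.037). POLD3, another delta subunit, was at 0.28 (0.24, 0.30 and 0.31) and was not called (adjusted p = 0.090). Its ratio also differed by dye, at 0.60 with 6 h RNA in Cy3 and -0.04 with it in Cy5. The catalytic subunits of these polymerases were dim: POLE cleared the background threshold on 2 arrays at 0 h and on 1 at 6 h, POLD1 did so on 4 and 3, and neither was tested. The calls of PRIM2 and POLD2 were lost without replicate 2 (adjusted p = 0.15 and 0.16) and without replicate 3 (0.086 and 0.093). That of POLD2 was also lost without the filter on dim probes (adjusted p = 0.059) and with 6 h RNA in Cy5 alone (adjusted p = 0.054).

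In the clamp group, PCNA, the ring that tethers polymerases to DNA, had levels of 14.46, 14.14 and 14.29 at 0 h and 13.03, 13.08 and 13.25 at 6 h. It fell by 1.17 (ratios -1.43, -1.05 and -1.03, adjusted p = 0.0031), with no overlap between the times. RFC is the loader that opens PCNA. Its subunits RFC5 (-1.15, -1.36 and -1.21, mean -1.24, adjusted p = 0.0020) and RFC4 (-0.90, -1.28 and -1.11, mean -1.10, adjusted p = 0.0031) fell by similar amounts. RFC2 fell by 1.06 (-0.77, -1.22 and -1.18, adjusted p = 0.0042). RFC3 did not share this, with ratios of -0.08, 0.37 and -0.31. Its mean was -0.01 (95% interval -0.41 to 0.39, adjusted p = 0.97), and none of the means of RFC2, RFC4 and RFC5 falls in that interval. RFC3 had 1 probe, and the interval covers the spread of replicates but not differences between probes of a gene.

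RPA coats single-stranded DNA as a complex of 3 subunits, of which 1 was called. RPA3, the smallest subunit, had levels of 14.97, 15.10 and 14.76 at 0 h and 13.86, 13.86 and 13.64 at 6 h. It fell by 1.16, with a tight spread (-1.11, -1.24 and -1.12, adjusted p = 0.0020) and no overlap. RPA1 (-0.29, adjusted p = 0.35) and RPA2 (-0.15, adjusted p = 0.41) were not called, and both had a ratio above 0 in replicate 1 (0.29 and 0.09) and below 0 in replicates 2 and 3. Without replicate 1, RPA1 was called lower (-0.58, limma adjusted p = 0.020). The enzymes that finish Okazaki fragments were not called either: FEN1, the flap nuclease, was at -0.32 (adjusted p = 0.068), and LIG1, the ligase, at -0.28 (adjusted p = 0.28). FEN1 averaged -0.11 with 6 h RNA in Cy3 and -0.53 with it in Cy5, where it was called lower (limma adjusted p = 0.033).

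Nucleotide supply was the one role in which each member fell. RRM2, the small subunit of ribonucleotide reductase, had levels of 11.33, 11.20 and 11.32 at 0 h and 10.04, 10.11 and 10.12 at 6 h. These levels did not overlap, and the gene fell by 1.19 (ratios -1.29, -1.09 and -1.20, adjusted p = 0.0020). Its single arrays were less even, from -0.62 to -1.77, averaging -0.82 with 6 h RNA in Cy3 and -1.56 with it in Cy5. RRM1, the large subunit, fell by 0.65 (-0.71, -0.60 and -0.66, adjusted p = 0.0080), although its 2 arrays of replicate 2 were at -0.055 and -1.15. TK1, the thymidine kinase of the salvage route, fell by 1.02 (-0.80, -0.98 and -1.29, adjusted p = 0.0044). TK1 was lower at both times in replicate 1 (7.50 and 6.70) than in the others, so its groups overlapped although it fell within each replicate. TYMS, thymidylate synthase, fell by 0.87 (-0.60, -0.92 and -1.09, adjusted p = 0.0073). DUT, the dUTPase that keeps uracil out of DNA, fell by 0.88, with replicate 3 weakest (-1.01, -1.06 and -0.58, adjusted p = 0.0074). Without replicate 2, RRM1, TYMS and DUT had means of -0.68, -0.84 and -0.80 and were not called (limma adjusted p = 0.056, 0.055 and 0.057). RRM1 was also not called with 6 h RNA in Cy3 alone (-0.49, adjusted p = 0.080).

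Among the regulators, 1 tested gene of 4 was called (25%, against 35.7% of all genes), so that with so few genes the count does not stand apart. CCNE2, a cyclin E that activates CDK2 at the entry to S phase, fell by 0.69 (-0.78, -0.82 and -0.47, adjusted p = 0.011), a call that was lost without replicate 2 (adjusted p = 0.079). CCNE1, the other cyclin E, was at -0.30 and not called (adjusted p = 0.080). It averaged -0.02 with 6 h RNA in Cy3 and -0.57 with it in Cy5, where it was called lower (limma adjusted p = 0.023). The activating factors E2F1 and E2F3 were at -0.22 (adjusted p = 0.21) and 0.11 (adjusted p = 0.57), and neither was called. E2F2 cleared the background threshold on 3 arrays at 0 h and 4 arrays at 6 h, CDC25A, the phosphatase that activates CDK2, on 4 at each time, and neither was tested. Without replicate 2 the number called over all genes went from 3286 to 1351, and 12 of the 27 called members lost their call. Among these were ORC1 and CDC6, with means of -0.82 and -0.70 (limma adjusted p = 0.084 and 0.11). The call of CDC6 was also lost without replicate 3 (adjusted p = 0.074).

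CHAF1B was the only member that rose. It encodes a subunit of CAF-1, the chaperone that places histones on new DNA. Its levels were 7.67, 7.42 and 7.57 at 0 h and 8.04, 8.01 and 8.04 at 6 h, without overlap. The ratios of 0.38, 0.59 and 0.48 averaged 0.48 ± 0.11 (SD, n = 3, limma adjusted p = 0.023). The call was lost without replicate 2 (adjusted p = 0.15), without replicate 3 (adjusted p = 0.091) and on the arrays with 6 h RNA in Cy3 alone (0.29, adjusted p = 0.16). CHAF1A, its partner in CAF-1, was at -0.27 (adjusted p = 0.27). UHRF1, which recruits the maintenance methyltransferase to new DNA, was at -0.49 (adjusted p = 0.10), and SLBP, which binds the histone mRNA stem-loop, at -0.38 (adjusted p = 0.069).

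Replicate 1 differed from the others. It had the highest ratio of the 3 replicates in 29 of 47 members (61.7%), against 39.3% of all genes. In 7 uncalled members replicate 1 was above 0 while replicates 2 and 3 were below, a pattern not counted over all genes. Members below 0 numbered 37, 42 and 44 of 47 in replicates 1, 2 and 3. Over all 9217 genes tested, 4631, 4908 and 4777 were below 0. When replicate 1 was left out, 8 further members were called lower: ORC5, MCM4, CDC45, RPA1, LIG1, CHAF1A, UHRF1 and SLBP. The number called over all genes went from 3286 to 3356 in that setting. Replicate 1 also had the highest oocyte marker ratio (median 1.46), and the part of oocyte RNA in the members' values was not tested.

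**Figure D3:**
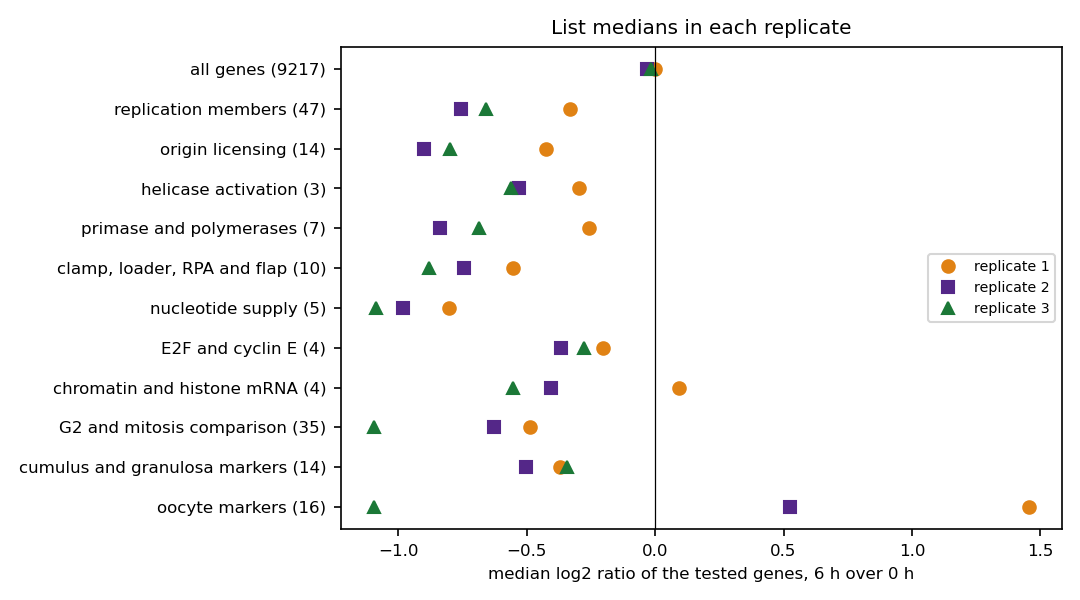
Median log2 ratio of 6 h over 0 h (horizontal axis) in each replicate for all genes, the members, each role and 3 comparison lists, with the number of tested genes in parentheses. Replicate 1 lies closest to or above 0 in each replication role, while the oocyte markers range from 1.46 in replicate 1 to -1.10 in replicate 3.

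Several members had more than 1 probe, and these probes did not always give the same ratio. Each gene above is its brightest tested probe. All 4 PCNA probes were called lower, at -1.17, -1.17, -1.27 and -0.92, when each probe was tested on its own (15.8% of all probes tested were called lower in this way and 17.6% higher). All 3 tested probes were also lower for GINS1 (-1.38, -1.26 and -0.63), DUT (-0.88, -0.84 and -0.38) and RRM2 (-1.19, -1.07 and -0.56). Both tested probes were lower for RFC5 (-1.24 and -0.49). The dimmer of these passed the filter only through 0 h, being above background on 5 of 6 arrays at 6 h. The other MCM2 probes gave -0.17 (not called) and -0.54 (called), and they were above background on 5 and 3 of the 6 arrays at 6 h.

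For TYMS and POLD2 the call rested on the brightest probe alone. The other TYMS probes gave 0.09 and -0.25, and the other POLD2 probes 0.08 and -0.09. With the mean over all tested probes, TYMS came to -0.34 (adjusted p = 0.11) and POLD2 to -0.25 (adjusted p = 0.21). ORC4 (-0.23 and -0.20), ORC6 (0.01 and -0.27) and POLD3 (0.28, 0.08 and 0.09) had no called probe. In 9 of the 11 members with several tested probes the brightest probe also had the largest change, PCNA and ORC6 being the exceptions.

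**Figure D4:**
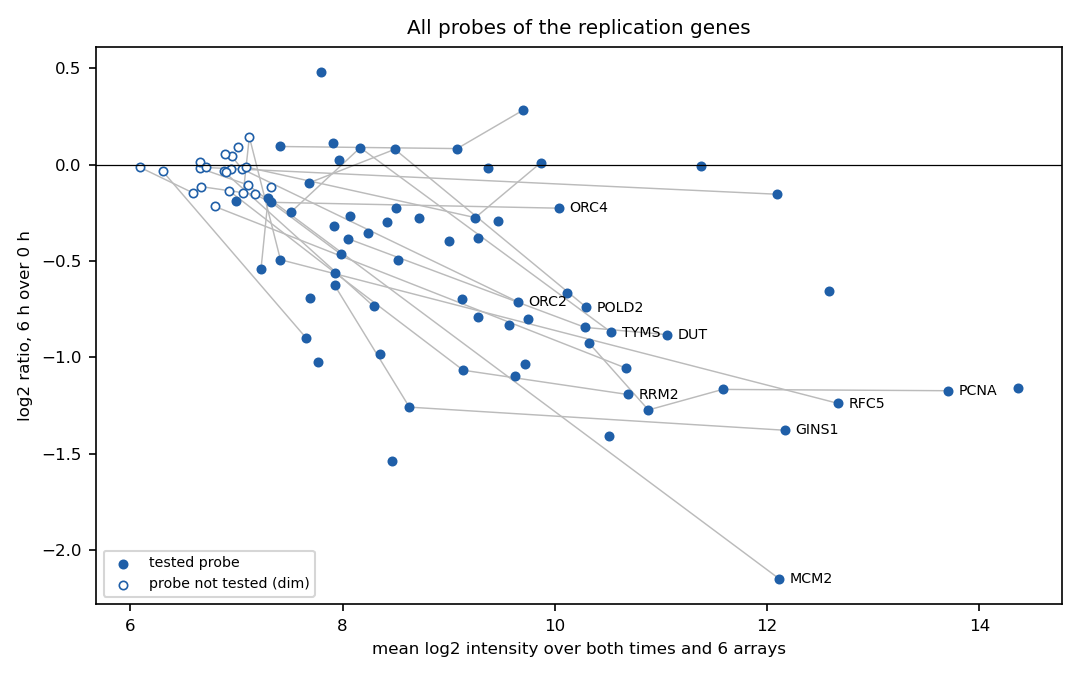
Log2 ratio of 6 h over 0 h (vertical axis) against mean log2 intensity (horizontal axis) for the 89 probes of the members. Filled points are the 67 tested probes, open points dim probes, and grey lines join probes of a gene; the PCNA probes stay level near -1, while the MCM2 line runs from -0.17 and -0.54 at the dim end to -2.15.

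Of 69 further replication, E2F and nucleotide genes, 53 were tested, 16 fell and 8 rose, with a median of -0.25. The share that fell was 30.2%, against 18.3% of all genes, and the share that rose was 15.1%, near the 17.4% of all genes. Without replicate 2, 5 fell and 3 rose, and without replicate 3, 7 fell and 4 rose. Over all genes, 1351 and 2323 were called in these settings, against 3286 with all replicates. Among the other replisome and origin genes, 10 of 26 fell (38.5%) and 4 rose (15.4%). CDC7, the kinase that fires licensed origins, fell by 1.41 (-1.05, -1.72 and -1.46, adjusted p = 0.0031). PCLAF, a PCNA-binding protein, fell by 1.43 (-1.51, -1.25 and -1.52, adjusted p = 0.0017), and WDHD1, which links polymerase alpha to the helicase, fell by 0.83 (-0.73, -0.92 and -0.84, adjusted p = 0.0044).

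GINS4 went the other way from the GINS subunits among the members. It rose 3.10-fold, with ratios of 1.61, 1.49 and 1.81 (mean 1.63, adjusted p = 0.0014), while GINS1 and GINS3 fell. The other 3 genes of that list that rose, named after their values were seen, were TIPIN (0.69, adjusted p = 0.0083), DONSON (0.45, adjusted p = 0.024) and TOP1 (0.38, adjusted p = 0.046). TIPIN belongs to the fork protection complex, DONSON helps GINS to join the helicase, and TOP1 relieves supercoils ahead of the fork.

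Among 13 tested E2F, RB and S phase kinase genes outside the member list, 4 fell (30.8%) and 3 rose (23.1%), beside 18.3% and 17.4% of all genes, so that with so few genes neither count stands apart. E2F4, an E2F known mainly as a repressor with the pocket proteins, rose by 1.20 on the log2 scale (1.39, 1.19 and 1.03, adjusted p = 0.0024). TFDP1, the dimer partner of E2F proteins, rose by 0.84, most in replicate 1 (1.39, 0.58 and 0.56, adjusted p = 0.024). RBL2, the pocket protein p130, fell by 0.73 (-0.76, -0.98 and -0.45, adjusted p = 0.013), and CDK1, the mitotic kinase, fell by 0.62 (-0.38, -0.68 and -0.79, adjusted p = 0.017). The third gene that rose, named after its values were seen, was E2F5 (1.19, 0.29 and 0.95, mean 0.81, adjusted p = 0.026). Of 14 tested nucleotide and chromatin assembly genes outside the member list, 3 were called (21.4%, against 35.7% of all genes). DCK, the deoxycytidine kinase, fell by 0.87 (adjusted p = 0.0036), HAT1, a histone acetyltransferase, fell by 0.36 (adjusted p = 0.047), and DCTPP1, which degrades dCTP, rose by 0.50 (adjusted p = 0.043).

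Genes of G2 and mitosis, taken for comparison with the S phase members, fell in 27 of 35 tested cases (77.1%, against 18.3% of all genes), and no tested gene of that list had a mean above 0. CDK1 and TOP2A stood on both this list and the lists of other pathway genes. Without replicate 2, 10 G2 and mitosis genes were called lower, and without replicate 3, 14. The number called over all genes also went down, from 3286 to 1351 and 2323. The G2 and mitosis genes had a median log2 ratio of -0.73, beside -0.69 for the replication members, and the difference was not tested. Their medians in replicates 1, 2 and 3 were -0.49, -0.63 and -1.10. NUF2 (-1.35, adjusted p = 0.0017) of the kinetochore, NUSAP1 (-1.37, adjusted p = 0.0020) and CKAP2 (-1.31, adjusted p = 0.0023) of the spindle, and NCAPG (-0.98, adjusted p = 0.0029) of condensin had the smallest p.

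**Figure D5:**
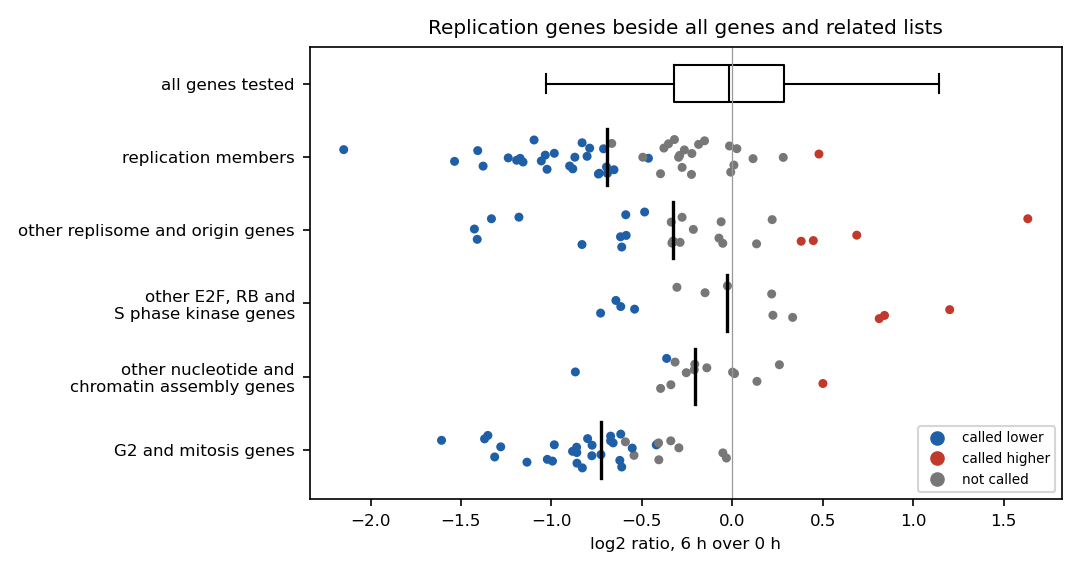
Log2 ratio of 6 h over 0 h (horizontal axis) for all genes tested (box: quartiles; whiskers: 5th to 95th percentile), the replication members, 3 lists of other pathway genes and the G2 and mitosis genes. Each point is a gene, coloured by its call, and black bars are medians; the members (-0.69) and the G2 and mitosis genes (-0.73) lie left of all genes (-0.02), while the other pathway lists hold red points on the right, with GINS4 farthest at 1.63.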

How the data were processed

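RNA of cumulus cells was hybridised to 6 dual-colour arrays, after linear T7 amplification and chemical Cy3 or Cy5 labelling per the labels' protocols. The authors deposited each spot's raw intensity and local background, per the file headers, and a matrix of normalized log2 ratios, whose method no source used here gives. That deposited log2 matrix correlated at r = 0.990 to 0.995 with the ratios computed here, and served as an alternative.

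Spot means were corrected with normexp (local background median, offset 50), normalized by loess within each array, turned to 6 h over 0 h per the labelled dyes, and averaged over each dye swap. Between 11 and 69 ignored spots per array were left out. The threshold for signal above background was, in each channel, the mean plus 2 SD of 153 negative controls. A probe was tested where it passed on all 6 arrays at 0 h or all 6 at 6 h, and the brightest tested probe stood for a gene. Levels are log2 intensities after Aquantile scaling, and brightness was used between probes only to choose, plot and describe them, not as abundance. Of 43794 probes, 21790 had 1 symbol, updated through RefSeq synonyms (ARS-UCD2.0), and 22004 had several or none and were not named. Ratios were tested with limma 3.58.1 in R 4.3.3 (lmFit and eBayes, two-sided) and p-values adjusted over 9217 genes (Benjamini-Hochberg, threshold 0.05). The procedure was tested on simulated data.

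All members are named, with values per replicate for those called. Of each pathway list the 4 called genes with the smallest p are named. Members and lists were chosen with earlier results of these data known, so counts over them are descriptions. The alternatives left out each replicate or one dye orientation, and changed the background correction, normalization, dim-probe filter, probe choice and variance model. The number of arrays limits the precision.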

Additional observations from a re-analysis of the deposited data

How the results depend on the processing

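None of the 27 called members changed sign under the 16 alternatives, of which the mean local background was chosen after seeing the data. ORC1, TK1 and CCNE2 were run in 15, because the filter at both times left them out. The mean of 6 uncalled members (ORC6, MCM6, POLA1, POLD3, RFC3 and E2F3) changed sign under at least 1 alternative, with no call at the changed sign. With 1 replicate left out, ORC6 ranged from -0.19 to 0.17, RFC3 from -0.20 to 0.14, MCM6 from -0.076 to 0.029 and POLA1 from -0.011 to 0.069. With 6 h RNA in Cy3 alone, MCM6 was at 0.058, RFC3 at 0.041 and ORC6, without a change of sign, at 0.60. With it in Cy5 alone, ORC6 was at -0.58, POLA1 at -0.022, POLD3 at -0.036 and E2F3 at -0.024. ORC6 was also at -0.034 without background correction, -0.013 with median centring, -0.042 in the authors' matrix (POLA1 at -0.0044), -0.13 with the mean over probes and -0.0055 with the mean local background. With 1 replicate left out, 1351 to 3356 genes were called in all, 15 to 34 members were lower and 0 to 1 higher, 5 to 19 other pathway genes were lower and 3 to 6 higher, and 10 to 32 G2 and mitosis genes were lower. The primase and polymerase median was -0.19 without the dim-probe filter and -0.25 with the mean over probes, which also put nucleotide supply at -0.70. The clamp group median was -1.06 when probes had to pass on all arrays at both times. The E2F and cyclin E median was -0.085 without the filter, -0.12 with 6 h RNA in Cy3 only and -0.40 with it in Cy5 only. On the Cy3 arrays 2 members were higher, ORC6 and POLD3, and MCM4 was added as lower. On the Cy5 arrays FEN1 and CCNE1 were added as lower. Keeping 6 arrays with a dye term and the replicate block (correlation 0.49) lost no member's call and added MCM4. The cause of these shifts was not tested. Dim probes limit what can be said of 6 untested members.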
